A study of Rattus norvegicus with 6 samples.

Results

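The genes examined were those of the vacuolar proton pump (V-ATPase) and of the acid and bicarbonate transporters of the kidney. A gene belonged to the set when a probe set of the array carried only its symbol and that symbol began with Atp6v, the prefix of V-ATPase subunits, or was on a list of 16 named transporters and their regulators. This gave 34 genes on 43 probe sets, out of 14217 genes with a probe set of a single symbol. They comprised 20 V-ATPase subunit genes and 14 others, and 31 of them, of 10645 genes in all, were bright enough to be tested. Slc26a7, Rhbg and the subunit gene Atp6v0d2 had no probe set of their own symbol and were not analysed here.

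There were 3 samples of kidney RNA from heterozygous Han:SPRD rats (Cy/+), which develop slowly progressive polycystic kidney disease and carry 1 mutant copy of Anks6, and 3 from wild-type +/+ rats. The rats were male and 10 weeks old per the labels, whereas the study's methods give a younger age for the array RNA, and no treatment is given for either genotype. Each sample was hybridised to its own rat expression array, and the values analysed were the deposited linear signals, in arbitrary units. Nothing in the sources used here says that the 3 samples of a genotype were independent preparations beyond their separate labels, so the p-values speak to the spread among these samples, which may be technical. Whole kidney was used, so fewer cells of a type and less RNA per cell cannot be told apart in any result.

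The V-ATPase is a rotary motor that burns ATP to move protons. Its V1 sector, in the cytosol, binds and hydrolyses ATP, and its V0 sector, in the membrane, carries the protons across. Most subunits have a form found in every cell, where the pump acidifies lysosomes and endosomes. A few subunits (a4, B1, C2, G3) have a second form that is enriched in the kidney's intercalated cells, which place the pump on their surface. Enriched does not mean confined to these cells, and the arrays do not show which cells gave the signal. Type A intercalated cells secrete acid and return bicarbonate to blood through the anion exchanger AE1, the product of Slc4a1, while type B cells secrete bicarbonate through pendrin, the product of Slc26a4. Further upstream, the proximal tubule reclaims most of the filtered bicarbonate with the sodium-proton exchanger NHE3 and the bicarbonate carrier NBCe1. Inherited loss of the B1 or a4 subunit causes distal renal tubular acidosis.

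RefSeq's GRCr8 assembly of the rat genome gave 28 promoters for genes of the set, with 2 for Atp12a and none for some of the 34 genes. Each was 300 bases around an annotated start (250 before it and 50 after). Both strands were searched for TGTTTAC, a forkhead motif of the kind bound by the intercalated-cell factor Foxi1, and for the palindrome TCACGTGA, the core of the CLEAR element of lysosomal genes. The forkhead letters were in 1 of the 28, Atp6v1b1, and in 3.78% of 33469 promoters of the same length. The CLEAR letters were in 2, Atp6v0d1 and Atp6v0e1, and in 0.777% of all promoters. The 150 bases before the start are shown 5′ to 3′ on the strand of the gene for 3 subunit genes on which the results below turn: the kidney-enriched subunit with the forkhead letters, the kidney-enriched subunit that was lower, and the ubiquitous subunit with the smallest adjusted p. Capitals mark the motif, which lies 93 bases before the start of Atp6v1b1 (chr4:117781294-117781443, plus strand) and 53 before that of Atp6v0d1 (chr19:50357249-50357398, minus strand), while Atp6v0a4 (chr4:67809093-67809242, minus strand) held neither.
Atp6v1b1: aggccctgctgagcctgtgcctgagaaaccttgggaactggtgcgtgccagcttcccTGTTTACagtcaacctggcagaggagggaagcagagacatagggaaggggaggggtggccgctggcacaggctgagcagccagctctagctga
Atp6v0a4: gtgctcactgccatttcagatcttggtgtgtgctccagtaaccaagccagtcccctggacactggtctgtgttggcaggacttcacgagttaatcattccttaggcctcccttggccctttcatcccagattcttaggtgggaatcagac
Atp6v0d1: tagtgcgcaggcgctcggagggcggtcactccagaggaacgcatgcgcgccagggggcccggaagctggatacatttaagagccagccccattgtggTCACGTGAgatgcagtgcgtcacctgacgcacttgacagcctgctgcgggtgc

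Signals were compared on the log2 scale by limma with Benjamini-Hochberg adjustment over 18625 probe sets, at an adjusted p of 0.05, and a gene with several probe sets was represented by the brightest one. All differences are Cy/+ minus +/+. Arrays of the same genotype correlated at 0.982 or more (Pearson's r of log2 signal across probe sets) and arrays of different genotypes at 0.907 to 0.940. RNA integrity and labelling can be read from transcripts probed at both ends. The 3′ to 5′ signal ratio of beta-actin was 3.22 ± 0.26 across the Cy/+ arrays and 1.51 ± 0.0057 across the +/+ arrays (SD, n = 3 each), and that of Gapdh was 1.85 ± 0.10 and 1.18 ± 0.036. The part of these differences in the results was not tested. The labelled tissue was kidney, and 19 of 19 proximal tubule markers and 8 of 8 principal cell markers measured were above the intensity filter. Cy/+ replicate 1 was the lowest Cy/+ array by the medians of the intercalated-cell genes and of collecting duct markers. The values of the intercalated-cell genes and of the subunit pairs are given with and without it.

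Of the 31 genes tested, 18 were lower and 5 higher in Cy/+ kidneys, and for 8 the test was not passed. Across all genes tested, 29.3% were lower and 37.4% were higher. Arrays of the genotypes without overlap were common. Every Cy/+ array lay below every +/+ array for 3525 of the 10645 genes tested and above for 4420. Among the 31 genes this held for 19 and 5. The median log2 difference was -0.45 over the 31 genes and 0.090 over all genes tested. The ubiquitous subunits and the proximal carriers were mostly lower, and the broadly expressed bicarbonate transporters were higher. Of the 8 kidney-enriched subunit and intercalated-cell genes, 6 did not pass the test. The plots of signals by array and of differences by gene show all 31.

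**Figure D1:**
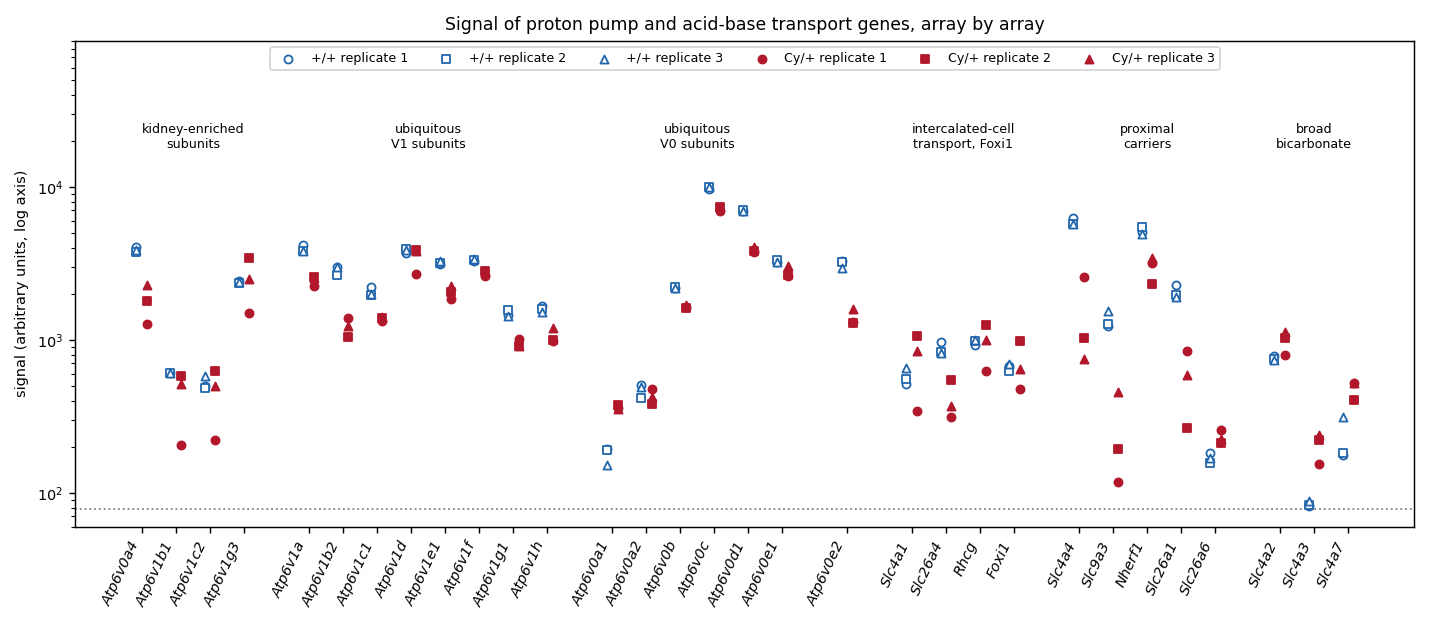
Array signals of the 31 tested genes (log axis, arbitrary units), with open blue symbols for the 3 +/+ arrays and filled red symbols for the 3 Cy/+ arrays; the dotted line is the intensity filter at 77.8. Cy/+ points spread widely for the kidney-enriched subunits, the intercalated-cell genes and the proximal carriers, and closely for most ubiquitous subunits.

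**Figure D2:**
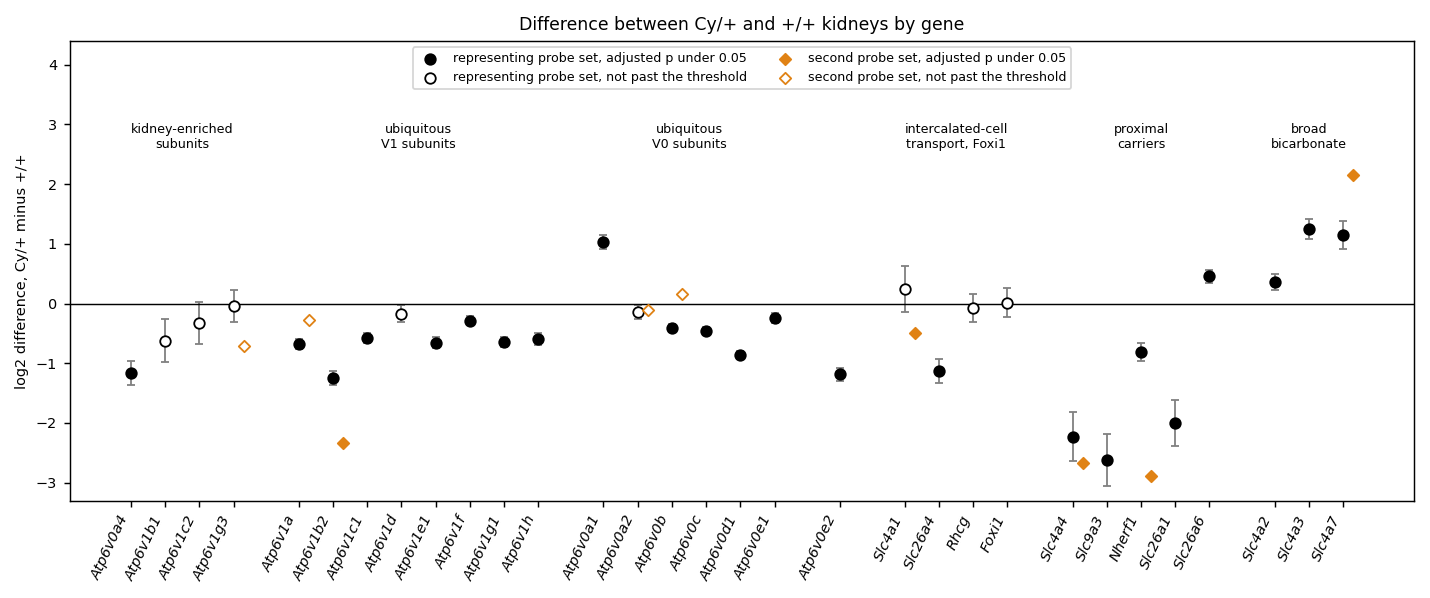
Log2 difference of Cy/+ minus +/+ for each tested gene, with its standard error from limma (3 arrays per genotype). Filled circles passed the test at an adjusted p of 0.05, open circles did not, and diamonds are second probe sets of the same gene; the +/+ mean of the second Slc4a7 probe set lay below the filter.

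Of the 4 kidney-enriched subunits, 1 was lower, beside 29.3% of all genes tested, and 3 did not pass. Their median log2 difference was -0.48. The one that was lower was Atp6v0a4, which encodes the a4 subunit of the V0 sector. Its signals were 1262, 1797 and 2289 in Cy/+ replicates 1, 2 and 3 and 4039, 3755 and 3886 in +/+ replicates 1, 2 and 3. Every Cy/+ array lay below every +/+ array. The Cy/+ mean was 44.5% of the +/+ mean on the log scale, a log2 difference of -1.17 with a standard error of 0.20 (adjusted p = 0.00169 from limma). Under the alternatives run it stayed between -1.37 and -0.94 with an adjusted p of at most 0.0204. In the same arrays 19 of 19 proximal tubule markers were lower. The part of any segment or cell type in the Atp6v0a4 signal was not tested.

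Atp6v1b1, the gene of the B1 subunit that takes part in ATP binding, had signals of 206, 579 and 511 in Cy/+ and 602, 610 and 605 in +/+. The groups did not overlap, but 2 Cy/+ arrays were close to the +/+ level and Cy/+ replicate 1 was far below it. Its log2 difference of -0.62 (standard error 0.36) did not pass (adjusted p = 0.161 from limma). Atp6v1c2, encoding the C2 subunit, had 222, 621 and 502 in Cy/+ and 496, 480 and 580 in +/+ (log2 difference -0.33, standard error 0.35, adjusted p = 0.426 from limma). Here Cy/+ replicate 2 was above every +/+ array and replicate 1 below every one. Atp6v1g3, encoding the G3 subunit of the stalk, had 1484, 3420 and 2488 in Cy/+ and 2410, 2364 and 2399 in +/+. The Cy/+ arrays fell on both sides of the +/+ arrays, and the log2 difference was -0.04 (standard error 0.27, adjusted p = 0.909 from limma). A second, dimmer probe set of Atp6v1g3 gave -0.71 (adjusted p = 0.057 from limma), also not past the threshold.

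The genes of the exchangers, the ammonia channel and the transcription factor of intercalated cells gave a median log2 difference of -0.03. Beside 29.3% of all genes tested, 1 of these 4 was lower. That one was Slc26a4, the gene of pendrin. Its signals were 310, 543 and 368 in Cy/+ and 959, 829 and 814 in +/+, with every Cy/+ array below every +/+ array. The log2 difference was -1.13 (standard error 0.20, adjusted p = 0.00209 from limma).

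Slc4a1 had signals of 344, 1058 and 844 in Cy/+ and 513, 554 and 656 in +/+. Cy/+ replicate 1 was the lowest and replicate 2 the highest of the 6 arrays, and the log2 difference of 0.24 (standard error 0.39) did not pass (adjusted p = 0.60 from limma). Its second, dimmer probe set differed in sign. It read 190, 256 and 294 in Cy/+ and 336, 316 and 369 in +/+, a log2 difference of -0.49 (standard error 0.17, adjusted p = 0.0354 from limma), so the direction of Slc4a1 was not settled by the array. AE1 is also the band 3 protein of red blood cells, and the red-cell markers differed in the same arrays. All 3 that were bright enough to test were lower, with log2 differences of -3.53 for Hbb, a beta globin, and -2.50 for Hba-a3, an alpha globin, while Alas2, of haem synthesis in red cells, had a Cy/+ mean below the filter and was at least 3.64-fold brighter in +/+. The other 5 measured, Epb42, Sptb, Rhag, Ahsp and Klf1, were below the filter. The 8 summed to 1367 to 1476 in Cy/+ arrays and 9542 to 12996 in +/+ arrays, and the part of red cells in either Slc4a1 probe set was not tested.

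Rhcg, the gene of an ammonia channel of the collecting duct, had signals of 620, 1247 and 996 in Cy/+ and 927, 983 and 994 in +/+ (log2 difference -0.08, standard error 0.23, adjusted p = 0.782 from limma). Foxi1, the transcription factor on which intercalated cells depend, had 476, 983 and 643 in Cy/+ and 671, 629 and 690 in +/+ (log2 difference 0.02, standard error 0.24, adjusted p = 0.959 from limma). For both, the +/+ arrays lay inside the range of the Cy/+ arrays. With 3 arrays per genotype and this spread, the test leaves room for changes in either direction, and equal expression is not shown.

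The 8 kidney-enriched subunit and intercalated-cell genes varied among Cy/+ arrays far more than among +/+ arrays. The SD of log2 signal had a median of 0.567 over these genes in Cy/+ and 0.061 in +/+, and was larger in Cy/+ for 8 of 8. Over all genes tested the medians were 0.16 and 0.083, and 78.2% of genes had the larger SD in Cy/+. A wide spread was not particular to these genes, as the proximal carriers had medians of 0.854 and 0.112. Cy/+ replicate 1 was the lowest of the 3 Cy/+ arrays for all 8 genes, as it was for 35.1% of all genes tested. This was not particular to the 8, as it was also the lowest for 9 of the 14 ubiquitous subunits and for 20 of the 31 genes. Measured from the +/+ mean, the median of the 8 genes was -0.98, 0.32 and -0.04 in Cy/+ replicates 1, 2 and 3 on the log2 scale.

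Cy/+ replicate 1 was also the lowest Cy/+ array by the medians of collecting duct markers outside the set. Of 5 intercalated-cell markers measured, Aqp6 and Insrr were below the filter, and Dmrt2, Hepacam2 and Tmem213 were tested with none past the threshold. Their median was -0.41, 0.42 and 0.45 in Cy/+ replicates 1, 2 and 3 relative to the +/+ mean, and the 5 summed to 1963, 3939 and 3614 against 2257 to 2694 in +/+. The 8 principal cell markers, which include the water channels Aqp2 and Aqp3, had medians of -0.41, 1.08 and 0.46 and summed to 8458, 24286 and 17608 in Cy/+ against 10056 to 11768 in +/+. Of them only Aqp4 was past the threshold, and it was higher. How far the share of collecting duct in each tissue piece entered the values of the 8 genes was not tested.

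Without Cy/+ replicate 1, the 8 genes had a median log2 difference of 0.16 in place of -0.20, and the 4 kidney-enriched subunits one of -0.02 in place of -0.48. Atp6v0a4 (-0.94) and Slc26a4 (-0.95) remained lower. Slc4a1 passed as higher by its brighter probe set in this setting only (0.73, adjusted p = 0.00318 from limma). Since Cy/+ replicate 1 was the lowest Cy/+ array for all 8 genes, leaving it out must raise each difference. That p-value is therefore no independent test of a rise in Slc4a1. In the second Slc4a1 probe set, Cy/+ replicates 2 and 3 (256 and 294) were still below every +/+ array (316 to 369). The other 5 did not pass, but their values moved: the log2 difference of Atp6v1b1 went from -0.62 to -0.16. Those of Atp6v1c2, Atp6v1g3 and Rhcg turned from negative to positive, at 0.11, 0.29 and 0.20, and that of Foxi1 went from 0.02 to 0.26. For Atp6v1g3 this held for the brighter probe set. The second read 711 and 486 in Cy/+ replicates 2 and 3 against 688 to 885 in +/+. Without Cy/+ replicate 2 the median was -0.47, and without replicate 3 it was -0.31.

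**Figure D3:**
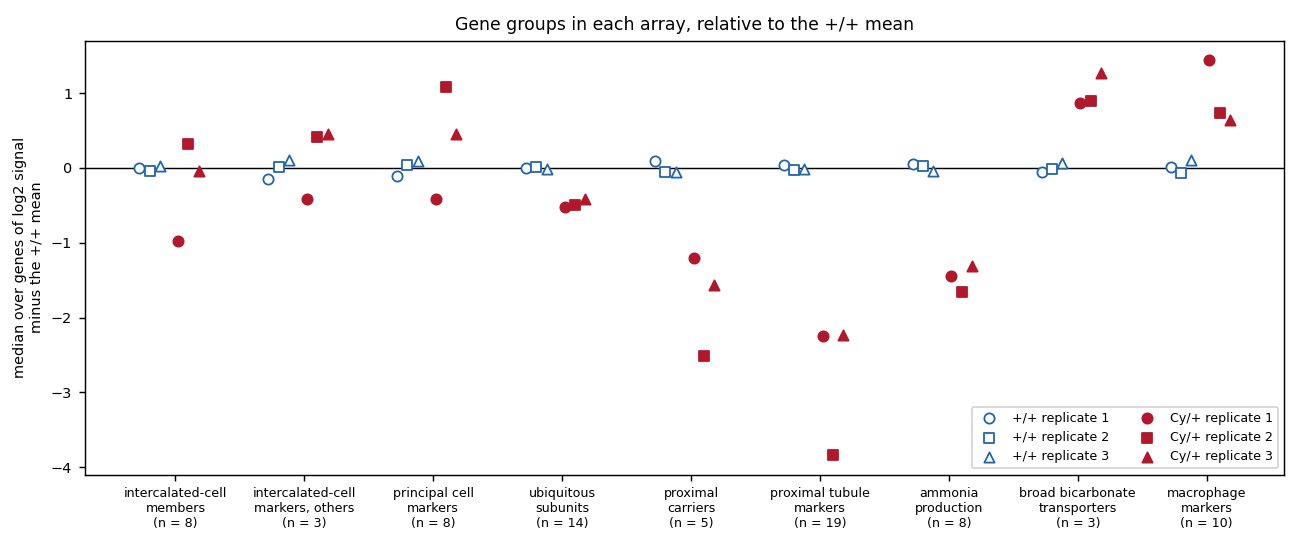
Median over the tested genes of each group of the log2 signal minus the +/+ mean, for each array, with the number of genes in each group under its name. In Cy/+ replicate 1 (filled circles) the intercalated-cell members, with the kidney-enriched subunits among them, were at -0.98 and the principal cell markers at -0.41. The ubiquitous subunits lay between -0.53 and -0.42 in all 3 Cy/+ arrays.

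The ubiquitous subunits were lower in a more even way. Among 14, the test found 11 lower and 1 higher, and 2 did not pass it, with a median log2 difference of -0.51. Among all genes tested, 29.3% were lower and 37.4% higher. Their median deviation from the +/+ mean was -0.53, -0.50 and -0.42 in Cy/+ replicates 1, 2 and 3, and the median SD of log2 signal in Cy/+ was 0.095. In the V1 sector, 7 of 8 were lower, with a median of -0.62, and in the V0 sector 4 of 6 were lower, with a median of -0.33.

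Of the V1 subunits, Atp6v1b2, which encodes the ubiquitous B2 subunit, differed most. Its signals were 1388, 1038 and 1226 in Cy/+ and 2973, 2644 and 2991 in +/+, a log2 difference of -1.24 with a standard error of 0.12 (adjusted p = 0.000137 from limma). The genotypes were well apart. A second probe set of Atp6v1b2 read 665, 643 and 733 in Cy/+ and 3829, 3265 and 3185 in +/+, a log2 difference of -2.33 (adjusted p = 1.88e-05 from limma), so the probe sets gave the same direction and a different size. Atp6v1a, the catalytic A subunit, was lower by one probe set (-0.68, standard error 0.08, adjusted p = 0.000378 from limma), and its second probe set gave -0.27 and did not pass (adjusted p = 0.0741 from limma). The stalk and regulatory subunits Atp6v1c1 (-0.58), Atp6v1e1 (-0.65), Atp6v1g1 (-0.64) and Atp6v1h (-0.59) were lower to a like extent. Atp6v1f was lower by less (-0.29), a call that was lost with quantile normalization (-0.10, adjusted p = 0.277 from limma). Atp6v1d, of the central rotor stalk, had signals of 2681, 3853 and 3805 in Cy/+ and 3677, 3925 and 3854 in +/+ and did not pass.

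In the V0 sector, Atp6v0d1, encoding the d subunit that joins the proton-carrying ring to the V1 stalk, had 3752, 3804 and 4011 in Cy/+ and 6982, 7065 and 6947 in +/+. The log2 difference was -0.86 (standard error 0.07), with an adjusted p of 6.07e-05 from limma, the smallest of the representing probe sets of the 31 genes. The ring subunits Atp6v0c (-0.45) and Atp6v0b (-0.41) were lower by less, and the second probe set of Atp6v0b gave 0.16, not past the threshold. With the mean of its probe sets, Atp6v0b no longer passed (-0.12, adjusted p = 0.339 from limma). Atp6v0e1 had a smaller decrease (-0.25, adjusted p = 0.030 from limma), and its call was lost in 7 of the alternatives. Both probe sets of Atp6v0a2, one of the a subunit isoforms, gave small differences that did not pass (-0.14 and -0.10).

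The exception was Atp6v0a1, another isoform of the a subunit, which was higher. Its signals were 360, 374 and 352 in Cy/+ and 193, 190 and 151 in +/+, so that every Cy/+ array was above every +/+ array. The log2 difference was 1.03 (standard error 0.12, adjusted p = 0.000261 from limma). Atp6v0e2, a second form of the e subunit that is best known from brain, was lower, with 1308, 1284 and 1576 in Cy/+ and 3272, 3243 and 2945 in +/+ (log2 difference -1.19, standard error 0.10, adjusted p = 8.96e-05 from limma). Atp6v1g2, the neuronal G subunit, lay below the filter in both genotypes, with means of 38.9 and 43.0.

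Lysosome and macrophage markers were counted in the same arrays, where 37.4% of all genes tested were higher and 29.3% lower. Of 15 lysosome markers 6 were higher and 5 lower, with a median log2 difference of 0.00. Their summed signal was 72399 to 85614 in Cy/+ and 77937 to 82800 in +/+. Ctsd, a lysosomal protease, was higher (1.22), and Mcoln1, a lysosomal cation channel, was lower (-1.46). Of 10 macrophage and osteoclast-like markers tested, 8 were higher and 1 was lower, with a median of 0.95, and the 12 measured summed to 15266 to 22422 in Cy/+ and 9000 to 10259 in +/+. Proximal tubule markers were lower, with values given beside the proximal carriers below. The part of any cell type in the subunit signals was not tested.

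Each kidney-enriched subunit was set against a ubiquitous form of the same subunit within an array, as the difference of their log2 signals. This shows whether the pair changed unequally, not which of them is more abundant. With 3 arrays against 3, the exact two-sided permutation test cannot give a p below 0.1, and 4 pairs were compared. The a4 and a1 pair differed most, by -2.20 between genotypes. Its size depends on the choice of a1, since Atp6v0a4 was at -1.17 and Atp6v0a1 at 1.03. Other isoforms of the a subunit were at -0.14 (Atp6v0a2) and 0.82 (Tcirg1, a3), and a4 was not paired with them. Relative to the +/+ mean the a4 and a1 pair was at -2.65, -2.19 and -1.76 in Cy/+ replicates 1, 2 and 3. In +/+ it was between -0.15 and 0.22, with no overlap (exact permutation p = 0.1, 0.4 adjusted over the 4 pairs). The B1 and B2 pair moved the other way, by 0.62, with Cy/+ arrays at -0.51, 1.40 and 0.98 (exact permutation p = 0.4, 0.533 adjusted). The G3 and G1 pair moved by 0.61 (-0.15, 1.21 and 0.75; exact permutation p = 0.4, 0.533 adjusted), and the C2 and C1 pair by 0.24 (-0.60, 0.83 and 0.50; exact permutation p = 0.6, 0.6 adjusted). In these 3 pairs Cy/+ replicate 1 was negative and the other two Cy/+ arrays were positive. Without that array the difference was 1.19 for B1 and B2, 0.98 for G3 and G1 and 0.67 for C2 and C1, and -1.98 for a4 and a1. Over all 6 arrays, none of the 4 differences passed. The G3 and G1 values rest on the brighter Atp6v1g3 probe set, with a log2 difference of -0.04 between genotypes. The dimmer one gave -0.71, close to the -0.64 of Atp6v1g1.

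**Figure D4:**
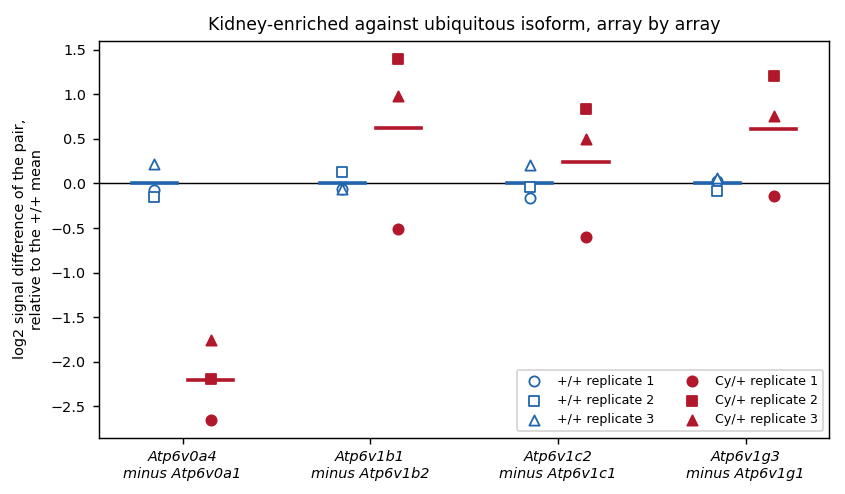
Difference in log2 signal between the kidney-enriched and a ubiquitous form of a subunit in each array, relative to the +/+ mean. Bars are group means of 3 arrays. The a4 minus a1 difference was below -1.7 in every Cy/+ array, and the others lay on both sides of 0 in Cy/+.

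The 3 largest decreases among the representing probe sets of the 31 genes were in proximal carriers. Of 5 carriers, 4 were lower and 1 was higher, beside 29.3% and 37.4% of all genes tested. Their median log2 difference was -2.0. Slc4a4, the gene of the sodium-bicarbonate cotransporter NBCe1 on the blood side of the cell, had signals of 2558, 1031 and 751 in Cy/+ and 6269, 5725 and 5681 in +/+. The Cy/+ mean was 21.3% of the +/+ mean on the log scale (log2 difference -2.23, standard error 0.40, adjusted p = 0.00226 from limma), and the second probe set gave -2.66 (adjusted p = 0.000462 from limma). Cy/+ replicate 1 was the highest of the 3 Cy/+ arrays.

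Slc9a3, the gene of NHE3 on the luminal side, was in the opposite order among Cy/+ arrays, with 118, 194 and 453 in Cy/+ replicates 1, 2 and 3 against 1227, 1259 and 1544 in +/+. Its log2 difference was -2.62 (standard error 0.44, adjusted p = 0.00157 from limma). Nherf1, once named Slc9a3r1, encodes a scaffold that holds NHE3 in the brush border. It had 3154, 2320 and 3406 in Cy/+ and 5034, 5482 and 4908 in +/+ (log2 difference -0.81, standard error 0.15, adjusted p = 0.00217 from limma). The other Nherf1 probe set pointed the same way with a far greater size, at 153, 115 and 159 in Cy/+ and 1119, 1176 and 873 in +/+ (log2 difference -2.89, adjusted p = 2.83e-05 from limma). Slc26a1, the gene of a sulphate and anion exchanger, had 847, 266 and 585 in Cy/+ and 2275, 1958 and 1902 in +/+ (log2 difference -2.0, standard error 0.38, adjusted p = 0.00283 from limma).

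Slc26a6, encoding a chloride exchanger for oxalate, formate and bicarbonate, was the one that was higher. It was dim, with 256, 213 and 224 in Cy/+ and 181, 155 and 168 in +/+, without overlap (log2 difference 0.45, standard error 0.11, adjusted p = 0.00898 from limma). In the same arrays 19 of 19 proximal tubule markers were lower, beside 29.3% of all genes tested, with a median log2 difference of -2.88. These markers summed to 45376, 20202 and 53020 in Cy/+ replicates 1, 2 and 3 and to 165124 to 173182 in +/+, and the part of the segment's share of the tissue in the carriers' values was not tested.

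The 3 broadly expressed bicarbonate transporters were higher, beside 37.4% of all genes tested. Slc4a3, the gene of the anion exchanger AE3, had signals of 154, 220 and 238 in Cy/+ and 81.3, 83.2 and 87.8 in +/+, near the filter (log2 difference 1.26, standard error 0.17, adjusted p = 0.000553 from limma). Slc4a7, the gene of the electroneutral sodium-bicarbonate cotransporter NBCn1, had 523, 402 and 518 in Cy/+ and 176, 183 and 313 in +/+ (log2 difference 1.14, standard error 0.23, adjusted p = 0.00401 from limma). A second, dimmer probe set of Slc4a7 read 157, 389 and 271 in Cy/+ and 43.0, 58.7 and 75.6 in +/+. Its +/+ mean was below the filter, and the Cy/+ mean was at least 3.28-fold brighter (adjusted p = 0.00129 from limma). Slc4a2, the gene of the widely expressed anion exchanger AE2, had 790, 1021 and 1118 in Cy/+ and 784, 747 and 738 in +/+. Cy/+ replicate 1 was barely above the highest +/+ array. The log2 difference of 0.35 (standard error 0.13) passed narrowly (adjusted p = 0.0482 from limma) and did not in 11 of the alternatives.

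The catalytic subunits of the proton-potassium pumps of stomach and colon, Atp4a and Atp12a, were below the filter in both genotypes and were not tested. Atp4a had 42.4, 46.9 and 38.0 in Cy/+ and 42.6, 49.5 and 44.9 in +/+. Atp12a had 38.3, 39.1 and 38.5 in Cy/+ and 46.5, 36.3 and 46.4 in +/+. The groups overlapped for both.

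Genes that work with these pumps and carriers were counted on separate lists, beside 37.4% higher and 29.3% lower among all genes tested. All 4 carbonic anhydrases tested, which supply the protons and bicarbonate to be moved, were lower. Car14, bound to the membrane, went from 633 to 711 in +/+ arrays to 74.1 to 117 in Cy/+ (log2 difference -2.80, adjusted p = 3.19e-05 from limma), and Car2, the cytosolic form shared by proximal and intercalated cells, from 5990 to 6137 down to 4187 to 4826 (log2 difference -0.42, adjusted p = 0.0026 from limma). All 8 genes of ammonia production and its substrate transport were lower, with a median of -1.37. The 2 with the smallest adjusted p were Glud1, glutamate dehydrogenase (-1.36, adjusted p = 3.58e-05 from limma), and Slc25a11, the oxoglutarate carrier of mitochondria (-1.32, adjusted p = 6.49e-05 from limma). Of 6 other bicarbonate and proton transporters or regulators tested, Kcnk5, a potassium channel, was higher (0.62), Slc26a8 was lower (-0.32) and 4 did not pass.

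Of 12 accessory and assembly genes of the pump tested, 3 were higher and 5 lower, against 37.4% and 29.3% of all genes tested. Tcirg1, which encodes the a3 subunit of osteoclasts and lysosomes and whose symbol lacks the Atp6v prefix, was higher (0.82, adjusted p = 0.00102 from limma), as was Oxr1 (0.85, adjusted p = 0.00339 from limma). Tm9sf4 (-1.29, adjusted p = 0.000108 from limma) and Ncoa7 (-0.56, adjusted p = 0.000392 from limma) were lower. The accessory subunits Atp6ap1 (0.07) and Atp6ap2 (-0.06), the latter also called the prorenin receptor, did not pass. Of 5 chloride-proton exchangers and partners tested, Ostm1 (0.63) and Clcn3 (0.88) were higher, and Clcn4, Clcn6 and Clcn7 were lower. Clcn4, whose product exchanges chloride for protons in endosomes, had 121, 86.9 and 125 in Cy/+ and 970, 785 and 949 in +/+ (log2 difference -3.03, adjusted p = 2.47e-05 from limma), and Clcn6 had a log2 difference of -1.57 (adjusted p = 5.64e-05 from limma). Of 4 lysosomal transcription factors, Tfec was lower (-1.83, adjusted p = 0.00201 from limma) and Tfeb, Tfe3 and Mitf did not pass.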

How the data were processed

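The authors labelled total kidney RNA with biotin, hybridised 1 array per sample and deposited a table of intensity values that the submitters' processing notes credit to MAS5; its scaling and detection calls are not given in the sources used here. These linear intensities, from 10.65 to 32240 over 31099 probe sets, were taken to log2 without a pseudocount. The 57 control probe sets and those with a mean log2 signal below the 40th percentile (6.28 on the log2 scale, 77.8 as signal) were left out, leaving 18625. The platform annotation gave 20832 probe sets a single symbol, 436 several and 9831 none, and 20764 matched the GRCr8 gene table by Entrez number. Genotypes were compared by lmFit and eBayes with an intensity trend (limma 3.58.1, R 4.3.3), tested on simulated data first. A gene was represented by the probe set of highest mean log2 signal. Where a genotype mean lay below the filter, the fold is the brighter mean over 77.8. Isoform pairs used exact permutation (scipy 1.17.1), and the planned pair with Atp6v0d2 was not analysed. Every measured gene of the set is named, and of the related lists those past the threshold with the 2 smallest adjusted p each way. The genes and lists were chosen with earlier results of these data known. Precision is limited by 3 arrays per genotype.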

Additional observations from a re-analysis of the deposited data

Results flagged for a closer look

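Control probe sets, which belong to no comparison above, also differed between the genotypes. The 24 probe sets of the poly-A RNAs spiked in before labelling had a median Cy/+ over +/+ signal ratio of 3.88, and the 18 hybridisation control probe sets one of 1.82. Every Cy/+ array was above every +/+ array for 24 of 24 and 18 of 18, as it was for 4420 of 10645 genes tested. Both were picked out as a signal outside the probe sets of kidney genes. What part these differences have in the gene results was not tested.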

How the results depend on the processing

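Of 586 gene results under the alternatives, 565 kept their side of the threshold, 20 were no longer past it and 1 newly passed. None was past it in the opposite direction. Among the 565, 14 results, from 6 genes not past the threshold, changed sign without passing. Over the alternatives 3 to 6 genes were higher and 16 to 18 lower. The 3 higher came with a filter at the 60th percentile, which left 29 genes and dropped Slc26a6 and Slc4a3. The median of the ubiquitous subunits was -0.42 with quantile normalization, -0.58 with arrays centred on their median and -0.58 without probe sets that can bind several transcripts; these scalings moved the median of all probe sets by -0.05 and -0.07. With the probe set of highest linear mean, chosen after seeing the data, the B1 minus B2 difference was 1.71. Leaving out each array in turn, the C2 minus C1 difference lay between -0.050, without Cy/+ replicate 2, and 0.67, and the median of the kidney-enriched subunits between -0.77 and -0.02. In those fits, with fewer samples, 4 to 6 genes were higher and 17 to 18 lower. Same-numbered arrays of the genotypes deviated with correlations of 0.147, -0.110 and -0.151, and differently numbered ones with -0.116 to 0.235. With 3 arrays per genotype, these values cannot settle whether the numbers pair the samples. With the replicate block 4 genes were higher and 17 lower, Slc4a2 and Atp6v0e1 being lost. The cause of the other moves was not tested. Probe sets below the filter could hide changes in dim genes.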
